A study of Homo sapiens with 5 samples.

Results

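The genes described here are 8 members of the CEACAM family: CEACAM1, CEACAM3, CEACAM5, CEACAM6, CEACAM7, CEACAM8, CEACAM19 and CEACAM21. CEACAM proteins (carcinoembryonic antigen-related cell adhesion molecules) are cell surface proteins of the immunoglobulin superfamily that bind one another, or themselves, across neighbouring cells. CEACAM1 spans the membrane and carries inhibitory tyrosine motifs that recruit the phosphatases SHP-1 and SHP-2, whereas CEACAM5, CEACAM6, CEACAM7 and CEACAM8 are held in the membrane by a glycosylphosphatidylinositol (GPI) anchor. CEACAM5, the carcinoembryonic antigen, and CEACAM6 are made by epithelia and by many carcinomas, lung adenocarcinoma among them, while CEACAM3 and CEACAM8 are known as surface proteins of granulocytes. Most of the family lies in a cluster on chromosome 19 and arose by recent duplication, so that members share long stretches of near-identical exon sequence.

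The family was chosen by its measured levels on these arrays, that is, on the same control-against-control values and differences from control that are given below. Those values are therefore a description, without a test. A gene was taken when a feature (a transcript cluster, which summarises probes over the exons of a gene) was annotated with that symbol alone. By this rule 6 of the 8 members had a feature, out of 14232 named genes in all, and each had 1 feature. CEACAM6 and CEACAM19 had none of their own. The feature that carries the CEACAM6 symbol also carries CEACAM3 and CEACAM5, and the feature that carries CEACAM19 also carries PVR, so neither value can be given to 1 gene. Whether the probes of a feature with 1 symbol also match another member was not tested. A value given for a member is that of its feature.

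Messenger RNA levels were measured on 5 Affymetrix exon arrays, 1 for each of 5 RNA samples from established human lung cancer lines. A549, which per the submitters has lost LKB1 function and has raised NEDD9, gave 1 control array (n = 1) and 1 array for each of 2 short hairpins against the scaffold gene NEDD9 (n = 2). CRL-5907, which per the submitters keeps wild-type LKB1 and has little NEDD9, gave 1 control array (n = 1) and 1 array of cells that overexpressed NEDD9 (n = 1). What construct the control cells carried, and whether any array is a separate culture or a clone, is not stated in the sources used here, so the spread between the hairpins may be technical. NEDD9 itself differed from the control of its line by -0.59 and -0.41 with the hairpins and by 4.83 with overexpression (log2). It was thus at 0.67 of control with hairpin 1 and at 0.75 with hairpin 2, the latter a decrease short of 1.5-fold. All values are log2 levels in which 1 unit is 2-fold, and levels of different features are not set against each other because their probes differ. A level under the median of the named features of its array (5.69 to 5.85) was not shown to exceed background. The NEDD9 level of the CRL-5907 control (4.66) lay 1.03 under its array median, so the difference of 4.83 is a lower bound. As a measure of spread, the SD of the difference between the hairpin arrays was taken over all named genes of like level. It was 0.13 for the brightest genes and 0.26 near a level of 3.63, and it includes true differences between the hairpins.

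Both lines had the epithelial markers. EPCAM, CDH1, KRT8, KRT18 and KRT19 lay above the array median on all 5 arrays (5 of 5 markers, from 6.03 to 11.76). Of 10 granulocyte markers 8 were measured, and 2 to 4 of them lay above the median of an array. The pan-leukocyte gene PTPRC (1.72 on every array) and the neutrophil granule gene MPO (4.31 to 4.39) were below it throughout, as were CSF3R and CEBPE. ELANE, another neutrophil granule gene, was above it on all 5 arrays (5.93 to 6.24) and AZU1, also of these granules, on 3 (5.70 to 6.07). What these levels mean for CEACAM3 and CEACAM8 was not tested. S100A8 and S100A9, which epithelial cells also express, were bright in CRL-5907 (11.60 and 11.08 on its control) and lay at 5.18 and 6.10 in the A549 control. Of the 6 lymphocyte markers measured only NKG7 was above the median, of 7 fibroblast markers only COL1A1 was, on the CRL-5907 arrays, and of 5 endothelial markers none was on any array.

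The 150 bases that precede the start sites of CEACAM7, CEACAM5, CEACAM6 and CEACAM1 are shown because CEACAM7, CEACAM5 and CEACAM1 differed most between the lines, because CEACAM6 is one of the names on the shared feature, and because they show how alike members of the cluster are. They are RefSeq sequences of GRCh38.p14, on the strand of each gene, 5′ to 3′. CEACAM7 is at chr19:41688271-41688420 (minus strand), CEACAM5 at chr19:41708476-41708625 (plus strand), CEACAM6 at chr19:41755380-41755529 (plus strand) and CEACAM1 at chr19:42528482-42528631 (minus strand). Capitals mark matches to the searched motifs.
CEACAM7: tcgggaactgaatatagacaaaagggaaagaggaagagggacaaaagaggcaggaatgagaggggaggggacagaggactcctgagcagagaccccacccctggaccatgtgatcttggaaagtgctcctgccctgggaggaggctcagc
CEACAM5: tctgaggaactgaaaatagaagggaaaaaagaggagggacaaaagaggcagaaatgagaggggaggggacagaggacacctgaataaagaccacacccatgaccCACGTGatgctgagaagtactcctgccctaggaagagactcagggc
CEACAM6: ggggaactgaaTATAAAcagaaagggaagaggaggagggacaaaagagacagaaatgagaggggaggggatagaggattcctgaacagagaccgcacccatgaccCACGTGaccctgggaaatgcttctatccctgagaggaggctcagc
CEACAM1: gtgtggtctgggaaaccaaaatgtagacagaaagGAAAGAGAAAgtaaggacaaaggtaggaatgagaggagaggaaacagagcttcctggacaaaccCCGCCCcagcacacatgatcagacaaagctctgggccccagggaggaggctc

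The 250 bases before the start site were aligned pairwise, and identity was taken over the aligned bases, without gaps. CEACAM7 and CEACAM5 were 84.0% identical over 244 aligned bases. This was the highest of the 15 pairs among CEACAM1, CEACAM3, CEACAM5, CEACAM6, CEACAM7 and CEACAM8. The lowest was 69.3%, for CEACAM6 and CEACAM8, and the median was 76.7%. With 1 sequence of the pair reverse-complemented, the same alignment gave 63.4% for CEACAM7 and CEACAM5 and 53.3% for CEACAM6 and CEACAM8. CEACAM21 is not among the 15 pairs. The sequence before its start site 1 was 57.7% (CEACAM5) to 64.8% (CEACAM6) identical to those members, against 57.5% to 62.4% with reverse complements. Before its start site 2 identity was 76.6% (CEACAM1) to 82.0% (CEACAM7). Motifs were searched on both strands of these 250 bases. The E-box CACGTG, the recognition sequence of the factors USF1 and USF2, was present before CEACAM5 (first base at -46 from the start site) and CEACAM6 (at -45). It occurs in 6.34% of 35116 promoters of the same length. In the alignment with CEACAM5, CEACAM7 differs by C3T and CEACAM1 by G4A inside this motif, with positions counted from 1 at the first base of the CEACAM5 E-box. The GC box GGGCGG, bound by SP1, was found before CEACAM1, CEACAM6, CEACAM8 and both CEACAM21 start sites, and occurs in 42.6% of promoters. In CEACAM6 it lies outside the stretch shown. The interferon response core, GAAA repeated after 2 bases of any kind, was found only before CEACAM1 among the members (3.02% of promoters) and TATAAA only before CEACAM6 (10.7%). CEACAM7 and CEACAM3 held none of the 4 motifs. A match describes these letters only, and binding was not measured.

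The largest differences in the family lay between the lines. CEACAM7, a GPI-anchored member known from the apical surface of colon epithelium, was bright on all A549 arrays and below the array median on both CRL-5907 arrays. CEACAM1 was also higher in A549, and CEACAM5 was higher in CRL-5907. Of the 4 members that passed the level filter (the brighter control array above its own median), 2 were at least 2-fold higher in A549, against 9.88% of all 7716 genes that passed it. A further 1 was at least 2-fold higher in CRL-5907, against 5% of all genes. These shares are printed beside the counts and nothing is read from them, since the contrast chose the members.

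CEACAM7 was at 10.63 on the A549 control, 11.04 with hairpin 1 and 10.84 with hairpin 2, and at 4.13 on the CRL-5907 control and 3.75 with overexpression. All 3 A549 arrays were high and both CRL-5907 arrays were low. The A549 control exceeded the CRL-5907 control by 6.51, or at least 91.0-fold, a lower bound because the CRL-5907 value lay 1.56 under its array median. Only 4 of the 7716 genes were higher in A549 by more. How many of all genes had every array of 1 line above the other line was not counted. Nothing is therefore read from such an order, here or for the features below. CEACAM3 had it too (lowest A549 array 5.80, both CRL-5907 arrays 5.77), by less than the SD for its level.

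CEACAM1, the inhibitory transmembrane receptor, was at 8.41 on the A549 control, 8.91 with hairpin 1 and 8.26 with hairpin 2. In CRL-5907 it was at 6.10 on the control and 6.25 with overexpression. It was above the median on all 5 arrays, and every A549 array was higher than both CRL-5907 arrays. The difference between the controls was 2.31, or 4.97-fold, and 149 genes were higher in A549 by more.

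CEACAM5 ran the other way, at 10.28 on the CRL-5907 control and 10.24 with overexpression, against 9.06 on the A549 control, 9.32 with hairpin 1 and 9.38 with hairpin 2. It was bright on all 5 arrays, and both CRL-5907 arrays were higher than every A549 array. The CRL-5907 control exceeded the A549 control 2.33-fold (A549 minus CRL-5907, -1.22), and 281 genes were higher in CRL-5907 by more.

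The feature annotated with CEACAM6, CEACAM3 and CEACAM5 together was at 11.46 on the A549 control, 12.01 with hairpin 1 and 11.94 with hairpin 2, and at 10.08 on the CRL-5907 control and 10.41 with overexpression. It was higher on every A549 array than on both CRL-5907 arrays, by 1.38 or 2.60-fold between the controls. The feature of CEACAM5 alone had the opposite order of lines. That of CEACAM3 alone had the same order, with 0.19 between the controls beside an SD of 0.17. Under 3 other scalings the CEACAM3 difference was 0.08 to 0.14, within that SD. How much of the signal of the shared feature comes from each of the 3 genes was not tested, since probe sequences were not used here.

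**Figure D1:**
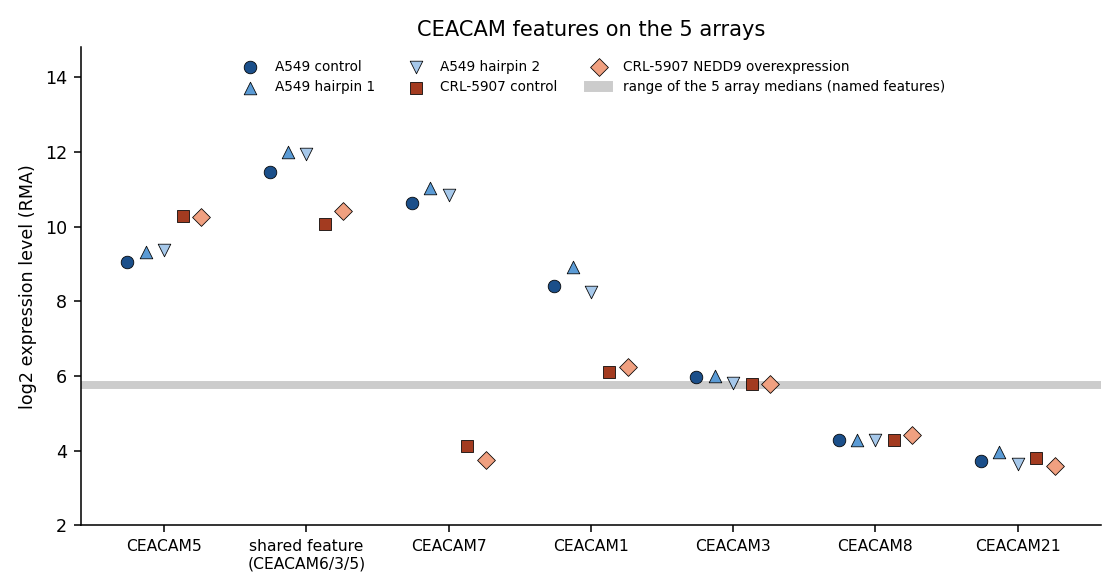
Log2 expression level (vertical axis) of the 6 CEACAM members with a feature of their own and of the shared feature, 1 point per array, with the range of the 5 array medians as a grey band. CEACAM7 lies at 10.63 to 11.04 in A549 and at 3.75 to 4.13 in CRL-5907, while CEACAM5 is higher in CRL-5907; levels of different features are not comparable with each other.

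CEACAM3, a granulocyte receptor that takes up bacteria, lay close to the array medians, at 5.96, 5.995 and 5.80 on the A549 control, hairpin 1 and hairpin 2 arrays and at 5.77 on both CRL-5907 arrays. Its highest and lowest values were 0.22 apart, and no neighbours in their order were separated by more than the SD of 0.17 for genes of this level. CEACAM8, another granulocyte protein, was at 4.29 on all 3 A549 arrays, at 4.29 again in control CRL-5907 cells and at 4.41 with overexpression, under the median on all 5. CEACAM21, a transmembrane member, was also under the median throughout, at 3.73, 3.95 and 3.65 in A549 and at 3.79 and 3.60 in CRL-5907. Neither of them had neighbours in order that differed beyond their SD. The A549 values of CEACAM8 were exactly equal, as were the CRL-5907 values of CEACAM3. RMA can return equal values for different arrays, so a difference of 0 does not show that a gene was unchanged. The feature shared by CEACAM19 and PVR ranged from 6.37 to 6.73 over the 5 arrays, and no neighbours in that order differed by more than their SD either.

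**Figure D2:**
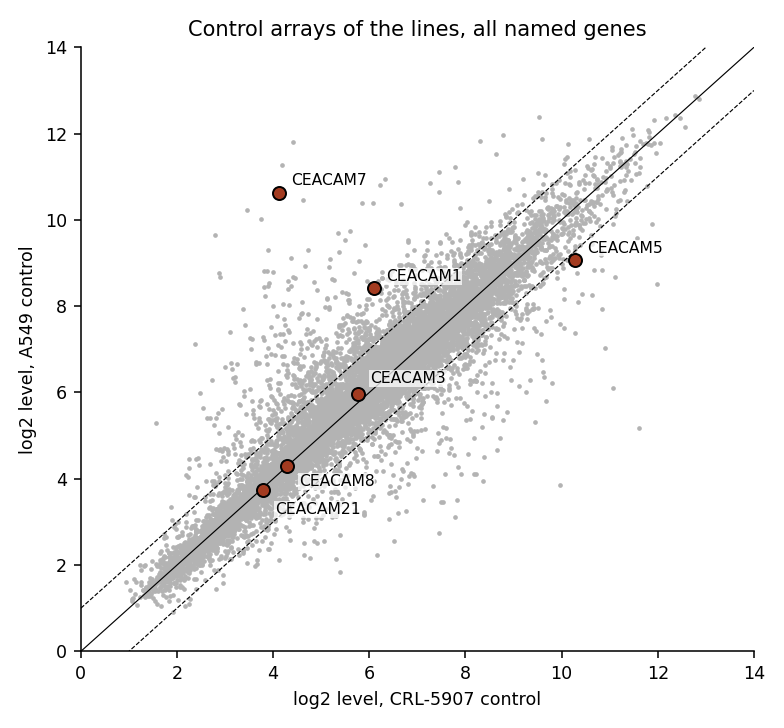
Log2 level on the A549 control array (vertical axis) against the CRL-5907 control array (horizontal axis) for all named genes (grey) and the 6 CEACAM members (red); the solid line marks equal levels and the dashed lines 2-fold. CEACAM7 and CEACAM1 lie above the upper dashed line and CEACAM5 below the lower one.

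CEACAM7, CEACAM5, CEACAM6 and CEACAM3 follow one another on chromosome 19, while CEACAM1 and CEACAM8 stand next to each other at the far end of a stretch of 31 protein-coding genes that begins at CEACAM21. This stretch was laid out after the values were seen. Of its genes outside the family 9 passed the level filter, with differences between the control arrays from -0.44 to 1.08 and a median of 0.15, against 0.05 over all genes that passed. RABAC1 was the single one of them past 2-fold (1.08, higher in A549). The features of the adjacent genes CEACAM7 and CEACAM5 thus differed between the lines in opposite directions, by 6.51 and -1.22. CEACAM4, which lies next to CEACAM7 on the other side, was under the median on all 5 arrays (2.99 to 3.43), as was CEACAM20 (3.72 to 3.79).

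**Figure D3:**
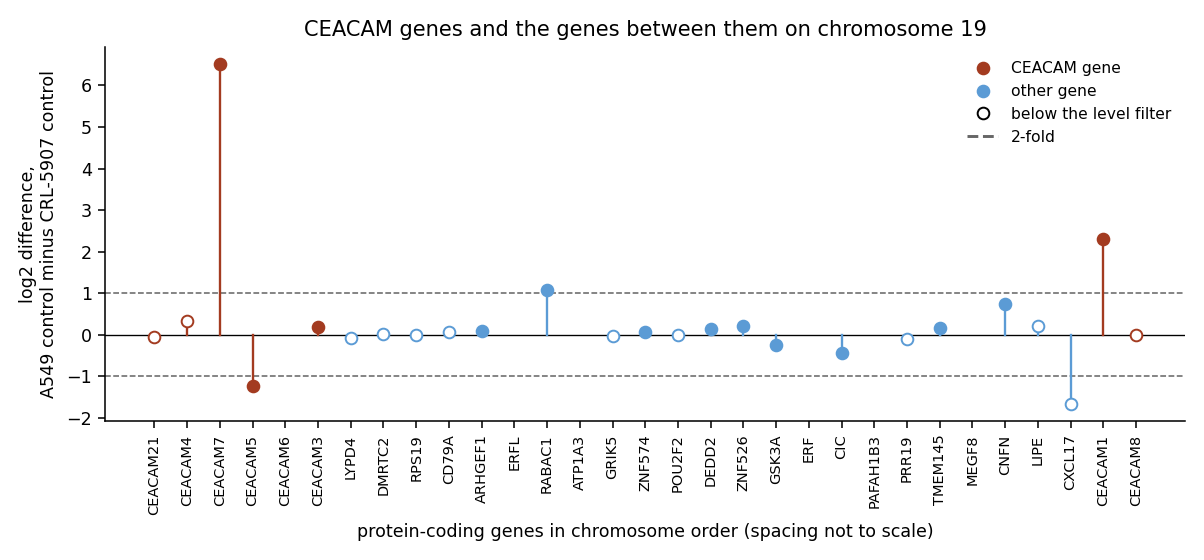
Log2 difference between the control arrays, A549 minus CRL-5907 (vertical axis), for protein-coding genes in chromosome order from CEACAM21 to CEACAM8, with CEACAM genes in red, other genes in blue, and open circles for genes below the level filter. CEACAM7 stands at 6.51 and its neighbour CEACAM5 at -1.22, and CEACAM1 at 2.31 and RABAC1 at 1.08 are the other filled points past the dashed 2-fold lines.

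With NEDD9 knockdown in A549, CEACAM5 and CEACAM7 were somewhat above control with both hairpins, CEACAM1 was above it with hairpin 1 only, and none of them reached 1.5-fold with either hairpin. Of the 4 members that passed the level filter, 0 lay 1.5-fold or more above control with each hairpin and 0 as far below it, against 0.708% and 0.134% of all 7485 genes. Over all genes these shares stand for 53 higher and 10 lower, and after a further quantile normalization for 40 and 18. Both hairpins lay above control by any amount for 2 of the 4 members, against 53.7% of all genes, so this direction is the commoner one on these arrays. The median difference over all genes was 0.10 with hairpin 1 and 0.04 with hairpin 2, and each hairpin is set against the same single control.

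For CEACAM5 the differences were 0.26 with hairpin 1 and 0.32 with hairpin 2 (mean 0.29 ± 0.04, SD, n = 2). Both exceeded the SD of 0.13 for genes of this level. The hairpin arrays remained below both CRL-5907 arrays. For CEACAM7 they were 0.40 and 0.20 (mean 0.30 ± 0.14, SD, n = 2), again beyond 0.13, and the hairpin arrays differed from each other by as much as hairpin 2 differed from control.

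CEACAM1 set the hairpins apart. It was 0.50 above control with hairpin 1 and at -0.16 with hairpin 2, beside an SD of 0.15, so the mean of 0.17 ± 0.46 (SD, n = 2) describes neither array. Hairpins lay on opposite sides of control for 15.9% of all genes, and for 2 of the 4 members. The gap between the hairpins was 0.66 for CEACAM1, and 48 of 7485 genes had a wider one. This rank is a description only, since the members were chosen on values of these same arrays. CEACAM3 was the other member with hairpins on opposite sides, at 0.04 and -0.16, within its SD of 0.17.

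The feature shared by CEACAM6, CEACAM3 and CEACAM5 was 0.55 above control with hairpin 1 and 0.48 with hairpin 2 (mean 0.52 ± 0.05, SD, n = 2), or 1.46-fold and 1.40-fold. Both hairpin arrays were higher than the control, and their gap of 0.07 was smaller than the SD of 0.13. Below the median, CEACAM21 was at 0.22 and -0.08 and CEACAM8 at 0.00 and 0.00.

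When NEDD9 was overexpressed in CRL-5907, 0 of the 3 members that passed the level filter there (CEACAM1, CEACAM3 and CEACAM5) were 1.5-fold higher or lower, against 3.5% of 7410 genes higher and 0.85% lower. These shares stand for 259 and 63 genes, and for 188 and 111 after a further quantile normalization. CEACAM5 differed from control by -0.04, CEACAM1 by 0.15 and CEACAM3 by 0.00, each within the SD for its level. CEACAM7 was at -0.37, between values that both lay under the array median, so no fold is given. The shared feature was 0.33 above control, beyond its SD of 0.13. With 1 array in each condition, no test of these differences was made.

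**Figure D4:**
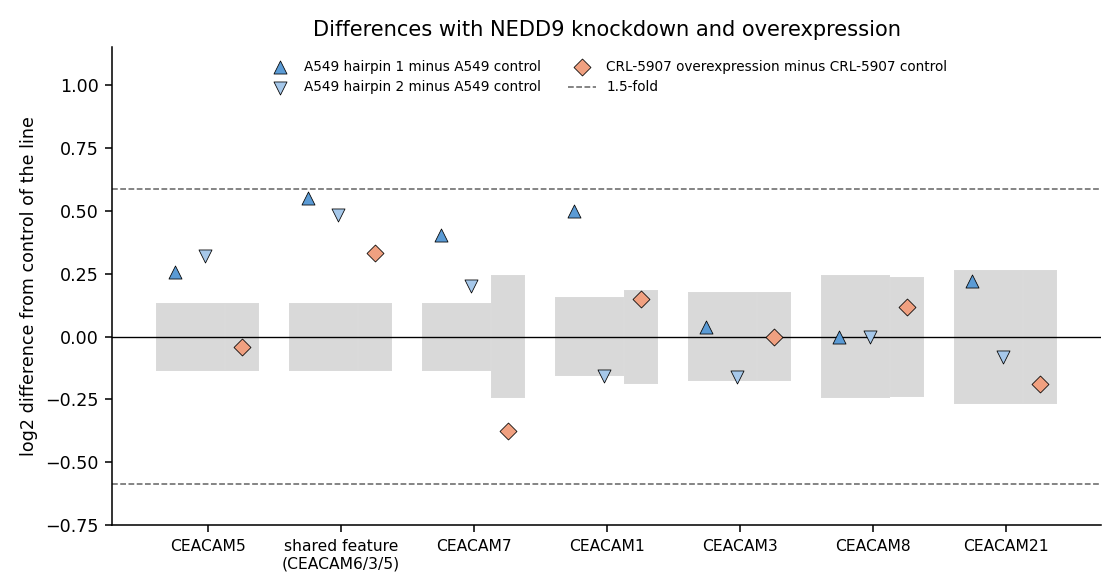
Log2 difference from the control array of the same line (vertical axis) with each hairpin in A549 and with overexpression in CRL-5907, 1 point per array. Grey boxes span 1 SD of the difference between the hairpin arrays on either side of 0 for genes of like level, and dashed lines mark 1.5-fold; no point reaches them, and the shared feature is the furthest above 0 with the hairpins (0.55 and 0.48).

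Genes that act with the family were taken from lists of signalling partners, GPI-anchor enzymes and promoter-binding factors. In knockdown, limma called 0 of the 5 partners, 0 of the 23 anchor genes and 0 of the 6 factors that passed the filter, against 0% of all 7485 genes (threshold 0.05 after adjustment by Benjamini-Hochberg; the smallest adjusted p was 0.276), and 1312 genes had an unadjusted p under 0.05. Since limma called 0 genes in all, with 1 residual degree of freedom, its 0 for a list cannot set that list apart. The lists had 13, 28 and 8 genes, of which 10, 24 and 7 were measured. None of these list members was 1.5-fold from control with both hairpins either. Their median differences were 0.05 for partners, 0.14 for anchor genes and -0.04 for factors, against 0.07 over all genes.

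Between the lines, 2 of 6 partners passed 2-fold, 1 in each direction, where 9.88% of all genes did in favour of A549 and 5% in favour of CRL-5907. SRC, a kinase that phosphorylates the CEACAM1 tail, was higher in A549 (8.95 against 7.82) and LYN, another kinase of its family, was higher in CRL-5907 (8.41 against 7.12). The phosphatases bound by CEACAM1, PTPN6 (SHP-1) and PTPN11 (SHP-2), were at -0.82 and -0.57 in A549 relative to CRL-5907, short of 2-fold. Of the 21 GPI-anchor genes 3 were at least 2-fold higher in A549 and 0 in CRL-5907 (9.88% and 5% of all genes), with a median difference of 0.49 against 0.05 over all genes. They were PIGS, a subunit of the transamidase that attaches the anchor (8.74 against 7.28), PGAP2, which remodels its lipid (8.91 against 7.47), and PIGA, which catalyses the first step of its synthesis (6.26 against 4.93). PIGA was also the 1 anchor gene of 19 past 1.5-fold with overexpression, at 5.91 against 4.93 on the control, the latter under the median; 0 of 6 partners and 0 of 6 factors passed 1.5-fold, and over all genes 3.5% were higher and 0.85% lower by that much. These small counts are not read as differing from those shares. Among the factors, SOX9 alone of 7 passed 2-fold (7.58 in A549, 6.40 in CRL-5907), beside the same 9.88% and 5% of all genes. USF1 (6.58 and 6.83) and USF2 (8.94 and 8.87) differed less. IRF1, an interferon-induced factor, was at 5.61 on all 3 A549 arrays, at 6.06 on the CRL-5907 control and at 6.41 with overexpression. The A549 values of IRF1 were exactly equal and under the array medians, so they show neither a level above background nor a constant one. Of the 11 PSG genes, the placental branch of the family, 0 had a feature annotated with that symbol alone, and none is given a value.

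The genes whose 5 values ran most like those of CEACAM7, by root mean square distance after each gene's mean was subtracted, were DKK1, a secreted WNT antagonist (0.21), OR51E1, an olfactory-family receptor (0.23), and CNTN1, a GPI-anchored neural adhesion protein (0.24), out of 8038 genes compared. DKK1 was at 11.27 in control A549 cells and at 4.18 in control CRL-5907 cells. For CEACAM1 they were IGFBP5, an IGF-binding protein (0.11), TMT1B (0.11) and ITIH2 (0.12). From control, IGFBP5 was at 0.68 with hairpin 1 and -0.05 with hairpin 2, TMT1B at 0.30 and -0.05, and ITIH2 at 0.34 and 0.02, so ITIH2 was not on opposite sides of it. These genes were picked for likeness over the same arrays. Likeness over 5 arrays is dominated by the difference between the lines, and it is given as a description.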

How the data were processed

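The deposited table holds log2 expression values of 22011 features on 5 arrays, which the authors made, per the submitters' processing notes, with Affymetrix Power Tools and RMA; versions and genome build are not given in the sources used here. RMA corrects background, quantile-normalizes and summarises probes. Their range, 0.58 to 13.09, is that of base 2 logs. The number of arrays, not read depth, limits precision. Samples were grouped by title; for hairpin 2 the title (NEDD9) was followed over a description that reads NEDD10.

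Features with 1 gene symbol numbered 14432; a gene with several took the brightest by mean. A gene entered a count when its brightest array in the comparison exceeded that array's median. Higher or lower meant 1.5-fold (with both hairpins for knockdown) or 2-fold between lines. Knockdown was fitted across all genes with limma 3.58.1 in R 4.3.3 (trend, 1 residual degree of freedom). The fit was also run on simulated data in which all genes of a level bin had the same SD. That run does not show how the fit performs on these arrays. Spread came from the hairpin difference in 20 level bins.

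Members and lists were chosen with earlier results of these data known. Named list genes are up to 3 per list and comparison past the fold rule; other genes were chosen after their values were seen. Likeness was searched for members that varied by over 2. Promoters matched 7 of 8 members by symbol. Alternatives changed scaling, feature choice, filter, threshold, hairpins and limma settings.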

Additional observations from a re-analysis of the deposited data

Results flagged for a closer look

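The feature annotated with CEACAM6, CEACAM3 and CEACAM5 together belongs to no single member and entered none of the counts. It lay above the control of its line on all 3 manipulated arrays, by 0.55 with hairpin 1, 0.48 with hairpin 2 and 0.33 with NEDD9 overexpression. NEDD9 was lowered with the hairpins and raised with overexpression, and the cause of these differences was not tested. Which of the 3 genes gives this signal was not tested. Each hairpin is set against the same single control, and both hairpins lay above it for 53.7% of the genes that passed the level filter. With overexpression the median difference over all genes that passed was 0.05. The share of genes above control on all 3 manipulated arrays was not counted. No group held enough arrays to look for outlying ones.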

How the results depend on the processing

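Of 72 recomputed differences of the 6 members and the 2 shared features under 3 other scalings, 71 stayed within 1 SD of their value. Centring the arrays on their medians shifts all differences of a comparison by the same amount, which was under the smallest SD (0.13). The 24 differences recomputed with centring therefore could not leave 1 SD. Averaging the features of a gene could change none, since each has 1. The exception was the difference between the control arrays for the feature of CEACAM6, CEACAM3 and CEACAM5, at 1.23 after a further quantile normalization. No difference past a fold threshold changed sign. Small ones did in 4 cases: between the lines CEACAM8 was at -0.11 with arrays centred on their medians and at -0.03 with the trend with level removed, and in knockdown the feature of CEACAM19 and PVR was at -0.02 after quantile normalization and at -0.01 with the trend removed. With either hairpin alone, CEACAM1 was at -0.16 or 0.50, so its direction in knockdown rests on which hairpin is read. CEACAM3 and CEACAM21 also changed sign between the hairpins, within 1 SD of their means.

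Counts over all genes moved more. Lower genes in knockdown numbered 18 and with overexpression 111 after a further quantile normalization, and knockdown gave 16 lower with the trend with level removed; the cause was not tested. With no filter on level, more genes were counted: 113 higher and 43 lower in knockdown, 413 and 192 with overexpression. With a filter at the 75th percentile fewer were: 20 and 3, 151 and 34, and 498 higher in A549. Lower fold thresholds (1.5-fold between lines) gave 432 and 106 in knockdown, 958 and 360 with overexpression, and 1499 higher in A549 and 854 in CRL-5907. Higher ones (2-fold, or 4-fold between lines) gave 5 and 0, 52 and 6, and 211 and 115. Either hairpin alone gave 101 to 192 higher and 36 to 40 lower. limma called 0 genes under its 4 alternatives. It was not run without a hairpin, which leaves no residual degree of freedom. No paired analysis was possible because the control groups hold 1 array each.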
